A study of Homo sapiens with 6 samples.

Results

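Chromatin accessibility was examined at 10 genes that define or drive the mesenchymal state, ZEB1, ZEB2, SNAI1, SNAI2, TWIST1, TWIST2, VIM, CDH2, FN1 and PRRX1, out of 20136 protein-coding genes annotated on the same genome. They were taken by name, and no measured value enters the rule, although earlier results of these data were known when they were chosen. For each gene, every ATAC-seq peak summit lying between 50 kb upstream of the annotated gene and its far end was collected, which gave 33 open sites of the 56419 found in the whole genome. ATAC-seq uses a transposase to cut and tag DNA that is not covered by nucleosomes, and a summit is the position of highest signal in a called peak. The cells were MDA-MB-231, a human triple-negative breast cancer line, for which the labels give no treatment. One group was the parental line (3 libraries) and the other was SAP30-KO1 (3 libraries), in which the SIN3 corepressor subunit SAP30 was removed with CRISPR/Cas9. SAP30-KO1 was grown as a mixture of several selected knockout cells and no other knockout line entered these data, so an effect of the selected cells cannot be told apart from loss of SAP30. The labels number the libraries as replicates but do not say that they came from separate cultures, so p-values measure the spread between these libraries, which may be technical.

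Epithelial-to-mesenchymal transition (EMT) is the program by which epithelial cells lose their junctions and gain motility. Zinc-finger repressors of the ZEB and SNAIL families and basic helix-loop-helix factors of the TWIST family silence epithelial genes such as CDH1, which encodes E-cadherin, while cells in the mesenchymal state make vimentin, N-cadherin and fibronectin. ZEB and SNAIL proteins bind the E-box CACCTG and recruit corepressors, and the miR-200 microRNAs hold ZEB1 and ZEB2 down in epithelial cells. MDA-MB-231 is widely used as a mesenchymal-like breast cancer line.

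The libraries held 29762 to 40650 summits each. The score of a summit, −log10 of its q value, is not on a common scale between separately called lists, so each score was converted to a percentile rank within its own library, from 0 to 100, and a library without a peak was given a rank of 0. The read depth behind a peak is unknown, and a missing peak says only that none was called. The promoter of SAP30 itself had a peak in all 6 libraries, with ranks of 64.8 to 84.7 in parental and 49.5 to 89.5 in SAP30-KO1 cells. Summits do not show the sequence change in SAP30 and therefore do not check the knockout. With 3 libraries against 3, the exact permutation test has a smallest possible p of 0.1, which is reached when the groups do not overlap, so no comparison of single genes or sites could fall under 0.05.

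First, promoters were compared, taken as the sequence within 1 kb of any annotated transcript start of the gene. A promoter peak was found in at least 1 library for 7 of the 10 genes (70%) and in all 6 libraries for VIM and FN1 (20%). Among all protein-coding genes these shares were 62.4% and 34.6%. TWIST1, TWIST2 and CDH2 had no promoter peak in any library. Averaged over the 10 genes, the promoter rank was 14.1, 24.2 and 20.3 in parental cells and 9.42, 28.4 and 19.0 in SAP30-KO1 cells. The groups overlapped, and in all 6 libraries this mean lay below the mean over all protein-coding genes of the same library, which ran from 26.3 to 33.2.

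**Figure D1:**
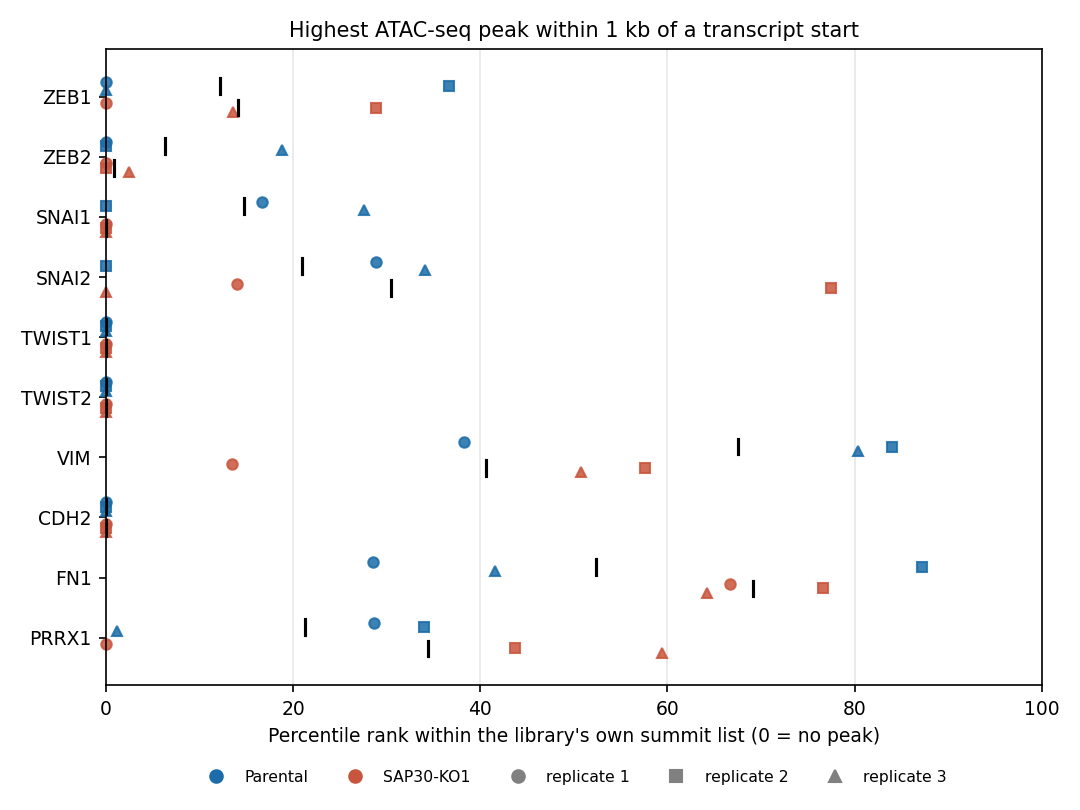
Promoter rank of the 10 genes. The x axis is the percentile rank of the strongest summit within 1 kb of a transcript start, each symbol is a library and black bars are means over 3 libraries. VIM and FN1 had a value above 0 in every library, and the groups overlap for all 10 genes.

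None of the 10 genes had promoter ranks that separated the groups, against 10.6% of the 12560 protein-coding genes for which some library had a promoter peak (6.01% higher and 4.58% lower in SAP30-KO1) and 6.61% of all 20136. The members with a peak each had an adjusted p of 1 (exact permutation test, two-sided, Benjamini-Hochberg over those 12560 genes), and the lowest adjusted p of any gene was 0.944.

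Among the structural genes, VIM, which encodes the intermediate filament vimentin (chromosome 10, 17270240 to 17279592, plus strand), had promoter ranks of 38.2, 83.99 and 80.4 in parental and 13.5, 57.6 and 50.8 in SAP30-KO1 cells. Parental replicate 1 lay below 2 of the SAP30-KO1 libraries, so the groups overlapped. The means were 67.5 ± 25.4 and 40.6 ± 23.8 (SD, n = 3), a difference of -26.9, with p = 0.3 by the two-sided exact permutation test. It fell to -41.5 without Parental replicate 1 and shrank to -13.3 without SAP30-KO1 replicate 1.

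FN1 encodes fibronectin, a matrix glycoprotein (chromosome 2, 216225163 to 216300796, minus strand). Its promoter ranks were 28.5, 87.2 and 41.5 in parental and 66.7, 76.6 and 64.2 in SAP30-KO1 cells. All SAP30-KO1 libraries lay above Parental replicates 1 and 3 but below Parental replicate 2. The difference of means was 16.8 (52.4 ± 30.8 and 69.2 ± 6.57, SD, n = 3), with p = 0.4 by the two-sided exact permutation test. It ranged from 4.83 without Parental replicate 1 to 34.2 without Parental replicate 2. The rank of 64.2 in SAP30-KO1 replicate 3 came from a transcript start inside the gene. At the main start that library ranked at 49.0, and with the canonical transcript alone the difference was 11.7.

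The peak at the main FN1 start is printed because it was the only promoter site of a member, outside untranslated sequence, that was open in all 6 libraries. The stretch is chr2:216300827-216301027 of GRCh37, plus strand, 5′ to 3′, 100 bases on each side of the summit, which lies at -0.131 kb from the gene start.
FN1 site 4: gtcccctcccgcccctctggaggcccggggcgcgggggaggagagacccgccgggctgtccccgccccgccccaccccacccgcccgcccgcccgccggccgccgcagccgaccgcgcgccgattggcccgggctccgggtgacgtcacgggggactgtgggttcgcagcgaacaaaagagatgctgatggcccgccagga
It holds none of the motifs searched here on either strand. These are CACCTG (an E-box bound by ZEB and SNAIL factors), TGANTCA (a pattern that includes the AP-1 element) and GGAATG (a TEAD element). N stands for any base, so TGANTCA is wider than the AP-1 element, which reads TGAGTCA or TGACTCA. GC made up 72.1% of the bases within 150 of this summit.

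The transcription factor genes had weaker and less regular promoter peaks. SNAI1, which encodes SNAIL (chromosome 20, 48599517 to 48605423, plus strand), ranked at 16.7, 0 and 27.6 in parental cells and at 0 in all 3 SAP30-KO1 libraries. Parental replicate 2 shared the rank of 0, so the groups overlapped (difference of -14.8, p = 0.4 by the same exact test, n = 3). Without Parental replicate 2 the difference was -22.1 and the groups separated, and without Parental replicate 3 it was -8.36. SNAI2, which encodes SLUG (chromosome 8, 49830157 to 49834299, minus strand), ranked at 28.8, 0 and 34.1 in parental and at 14.0, 77.5 and 0 in SAP30-KO1 cells. Both groups held a library with no peak and the direction was not stable, since the difference of 9.51 became -14.0 without SAP30-KO1 replicate 2 and -0.978 without Parental replicate 2.

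ZEB1 (chromosome 10, 31607424 to 31818742, plus strand) was open at its promoter in Parental replicate 2 alone among parental libraries, at 36.6, and in SAP30-KO1 replicates 2 and 3, at 28.8 and 13.6. ZEB2 (chromosome 2, 145121931 to 145278624, minus strand) had promoter peaks in only 1 library of each group, at 18.8 in Parental replicate 3 and 2.43 in SAP30-KO1 replicate 3. Those peaks lay at different starts of ZEB2, and both were near starts of the antisense gene ZEB2-AS1, as the ZEB1 peak was near the start of ZEB1-AS1. ATAC-seq does not record strand, so a peak between divergent starts cannot be assigned to either gene. Starts of other genes also lay within 1 kb of FN1 site 4 (FN1-DT) and of the SNAI2 promoter peaks. Those peaks likewise cannot be assigned to FN1 or SNAI2 alone. PRRX1, a homeobox factor of mesenchyme (chromosome 1, 170631869 to 170708562, plus strand), ranked at 28.6, 34.0 and 1.15 in parental and at 0, 43.7 and 59.5 in SAP30-KO1 cells. SAP30-KO1 cells thus held both the lowest and the highest values, and leaving out SAP30-KO1 replicate 3 reduced the difference from 13.2 to 0.634. These PRRX1 peaks belonged to a single site, whose strongest summit lay in an intron at 2.05 kb from the annotated gene start. The difference was 13.2 with the canonical transcript alone, but 1.45 with promoters of 500 bp.

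In order of mean promoter rank, parental cells had VIM at 67.5, FN1 at 52.4, PRRX1 at 21.2, SNAI2 at 21.0, SNAI1 at 14.8, ZEB1 at 12.2 and ZEB2 at 6.26. In SAP30-KO1 cells the order was FN1 at 69.2, VIM at 40.6, PRRX1 at 34.4, SNAI2 at 30.5, ZEB1 at 14.1 and ZEB2 at 0.809. Neighbours in these orders overlapped over their 3 libraries, with the single exception of FN1 and VIM in SAP30-KO1 cells, where the lowest FN1 value of 64.2 was above the highest VIM value of 57.6.

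Next, the whole regions were examined. The number of summits over all 10 regions was 24, 16 and 21 in parental cells and 12, 23 and 21 in SAP30-KO1 cells. Per 10000 summits of each list this was 6.54, 5.25 and 6.26 in parental and 4.03, 5.66 and 6.13 in SAP30-KO1 cells, so that the groups overlapped (6.02 ± 0.679 and 5.27 ± 1.10, SD, n = 3). Per length, VIM was the most densely occupied region, with a mean of 6.74 summits per 100 kb over the 6 libraries. PRRX1 followed at 2.76 and FN1 at 2.52 summits per 100 kb. ZEB1 was the sparsest at 0.319, and the median over the 10 regions was 1.17, against 1.65 over all protein-coding genes.

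**Figure D2:**
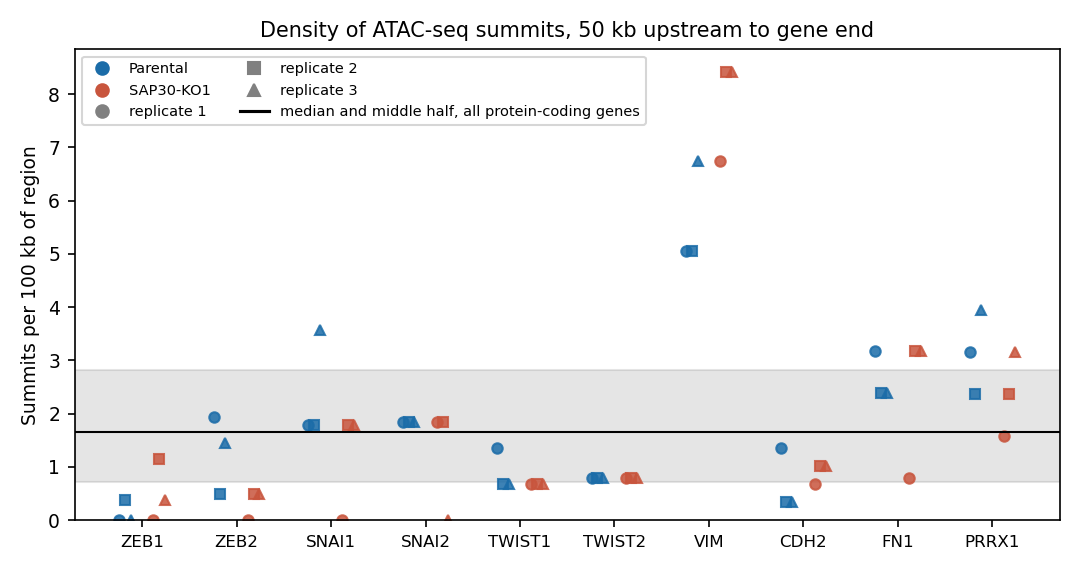
Summits per 100 kb of region for each of the 10 genes, 1 symbol per library. The line marks the median of all protein-coding genes, 1.65, and the band their middle 50%, from 0.722 to 2.83. VIM lies above the band in every library.

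Regions differed between groups for 2 of the 10 genes, in opposite directions. The ZEB2 region held 4, 1 and 3 summits in parental and 0, 1 and 1 in SAP30-KO1 cells. Per 10000 summits the parental libraries had 1.09, 0.328 and 0.894 and the SAP30-KO1 libraries 0, 0.246 and 0.292, so the groups were apart. Parental replicate 2 and SAP30-KO1 replicates 2 and 3 each held 1 summit, and differed only through the lengths of their lists. The VIM region held 3, 3 and 4 summits in parental and 4, 5 and 5 in SAP30-KO1 cells, or 0.818, 0.984 and 1.19 against 1.34, 1.23 and 1.46 per 10000. Here Parental replicate 3 and SAP30-KO1 replicate 1 each held 4 summits, and also differed only through the lengths of their lists. Each of the 2 regions had p = 0.1, the smallest possible, and an adjusted p of 1 (n = 3, exact permutation test, two-sided, adjusted over 17656 genes with a summit in their region). Of those genes 9.34% had groups that did not overlap, with 4.73% higher and 4.6% lower in SAP30-KO1. With the same number of top-ranked summits in each library, ZEB2 remained apart and VIM did not. At a q of 0.0001 or less, ZEB2 and PRRX1 were apart, the latter lower in SAP30-KO1 by a mean of -0.364 per 10000, and VIM again was not.

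The 33 sites were then taken one by one. A site is the union of summits from the 6 libraries whose windows of 250 bp on each side overlap. A peak in all 6 libraries was found at 9 sites (27.3%, against 28.9% of all sites in the genome) and in a single library at 9 sites (27.3%, against 28.5%). Promoters held 11 sites and 22 lay elsewhere. By the position of the strongest summit, 13 sites were intronic, 13 were upstream of the gene and 7 were in exons or untranslated regions. Some upstream sites were promoters of neighbouring genes. VIM site 1 lay at the start of TRDMT1, VIM site 3 at that of VIM-AS1 and SNAI1 site 1 at that of RNF114.

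**Figure D3:**
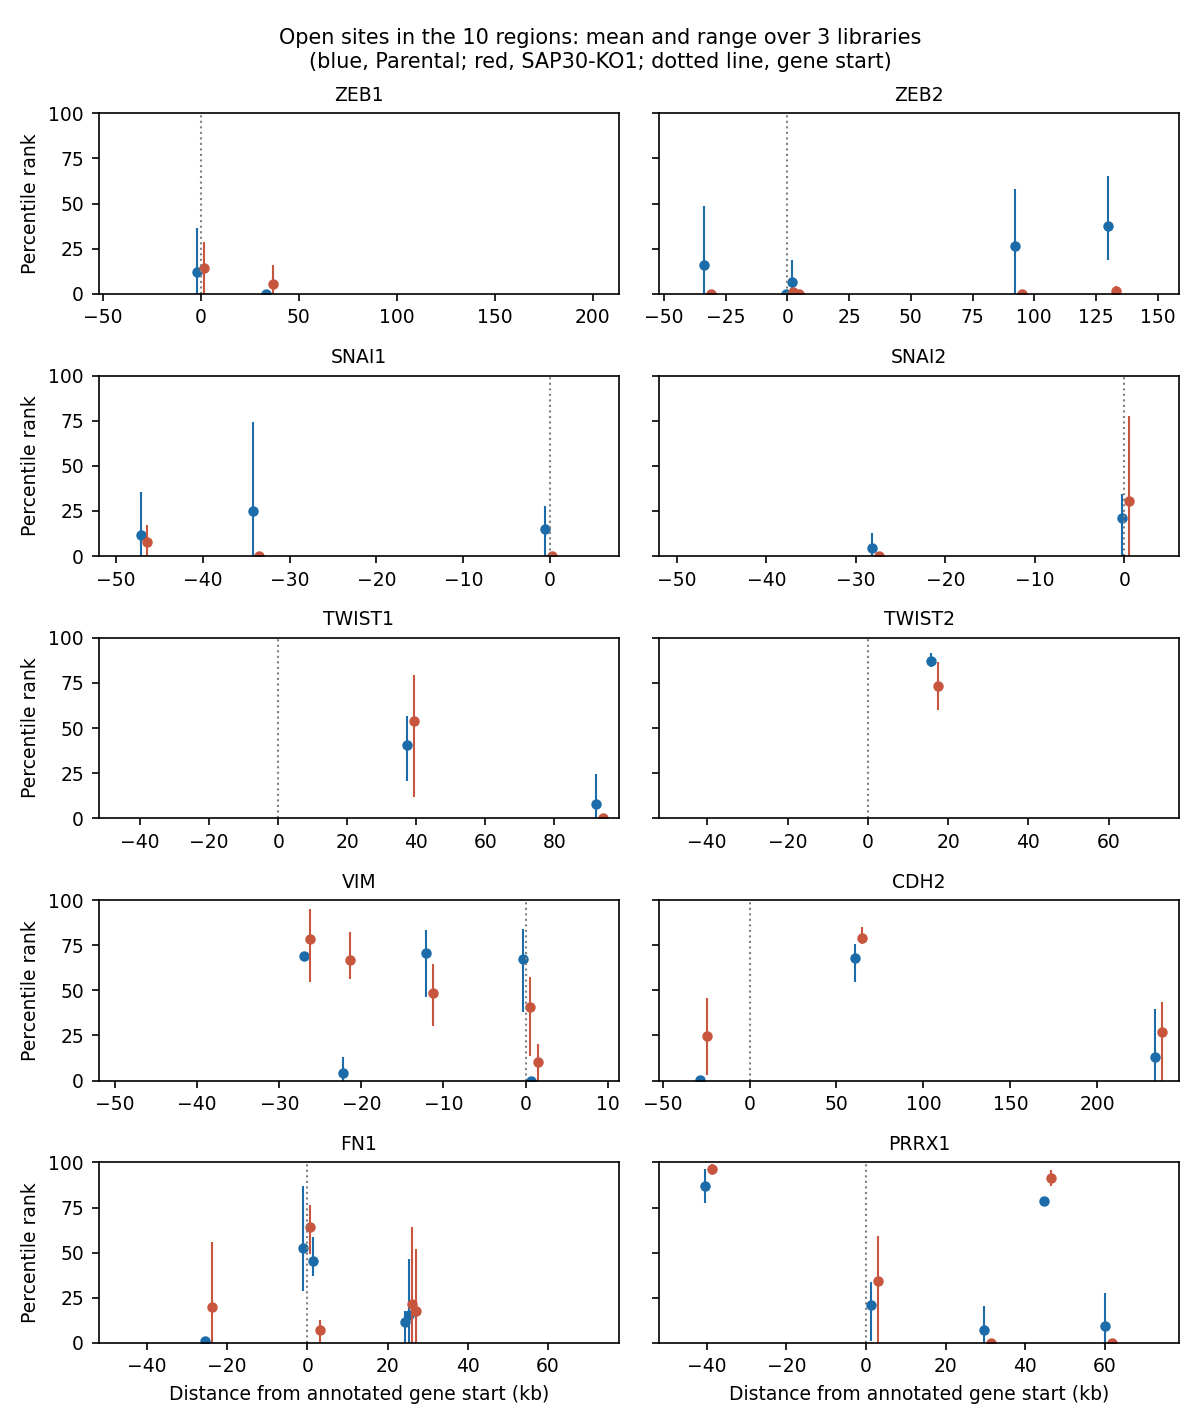
Open sites in each region. The x axis is distance from the annotated gene start in kb and the y axis is the percentile rank, with dots for means and lines for the range over 3 libraries, the groups being drawn slightly apart. TWIST1, TWIST2 and CDH2 show peaks only away from the gene start.

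The strongest sites of several genes lay outside their promoters. The highest mean rank over the 6 libraries was that of PRRX1 site 1, at -39.5 kb from the gene start, which ranked at 96.2, 87.7 and 77.6 in parental and 97.2, 99.1 and 92.8 in SAP30-KO1 cells. TWIST2, which lacked a promoter peak, had its single site in an intron at 16.6 kb, with ranks of 85.2, 91.5 and 84.1 in parental and 86.7, 59.95 and 73.6 in SAP30-KO1 cells. TWIST1, annotated over chromosome 7, 19060614 to 19157259, minus strand, also lacked a promoter peak. Its strongest site, at 38.4 kb, counts as intronic only by that whole annotated span. The site ranked at 56.6, 45.0 and 20.7 in parental and 11.7, 79.4 and 70.3 in SAP30-KO1 cells. At each of these sites the groups overlapped.

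Ranks did not overlap between the groups at 6 of the 33 sites (18.2%), against 10.1% of all 56419 sites. They were higher in SAP30-KO1 at 4 sites, where the background was 5.86%, and lower at 2 sites, where it was 4.26%. Among the 40338 sites with a peak in 2 or more libraries, to which 24 of the 33 belong, these shares were 8.2% and 5.96%, and 14.2% together. Each of the 6 sites had p = 0.1, the smallest possible, and an adjusted p of 0.706 (exact permutation test, two-sided, n = 3, Benjamini-Hochberg over those 40338 sites). No member site was open in every library of 1 group and closed throughout the other, a pattern found at 2.31% of all sites (1.43% open in SAP30-KO1 and 0.876% in parental cells). At sites open in all 6 libraries, the median difference on the chromosome arms that hold the members was between -0.558 percentile points (long arm of chromosome 2) and 3.42 (short arm of chromosome 7, which holds TWIST1).

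**Figure D4:**
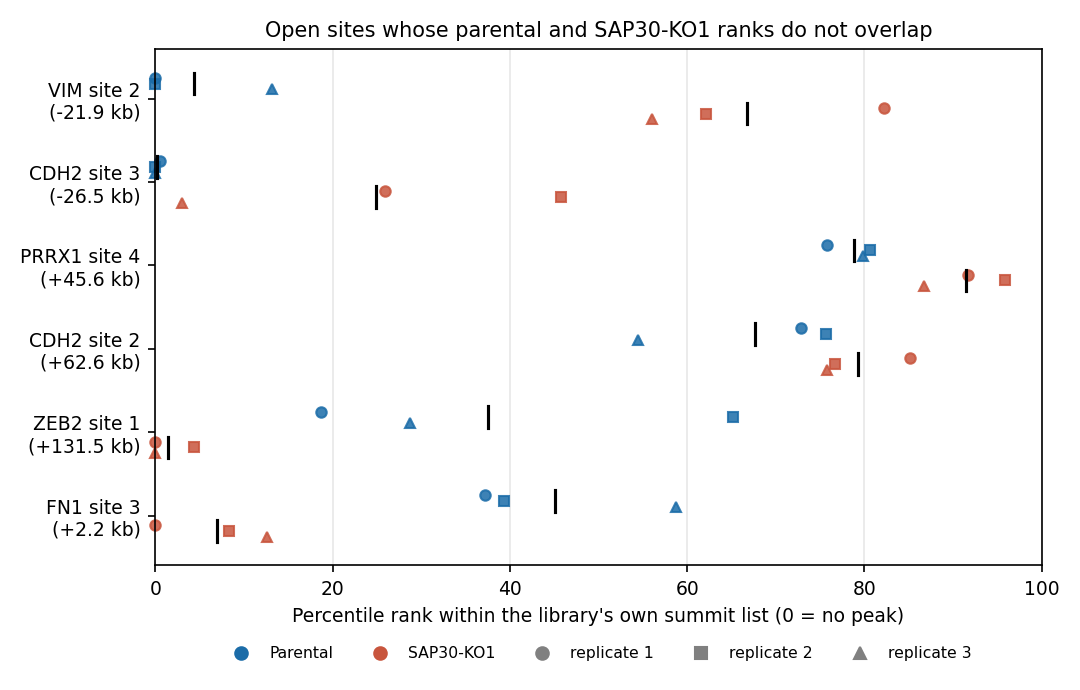
The 6 sites whose ranks did not overlap between groups, ordered by the difference of means. The x axis is the percentile rank, each symbol is a library, black bars are means, and the distance from the gene start is given under each name. VIM site 2 has the widest gap, and at CDH2 site 2 the groups almost touch.

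The largest difference was at VIM site 2, an intergenic site at -21.9 kb from the VIM start. It ranked at 0, 0 and 13.1 in parental and at 82.2, 62.2 and 56.1 in SAP30-KO1 cells. All SAP30-KO1 libraries had a strong peak there, and only Parental replicate 3 had one in the parental group, near the bottom of its list. The difference of means was 62.4 (4.38 ± 7.59 and 66.8 ± 13.6, SD, n = 3) and lay between 54.7 and 67.8 when any 1 library was left out. With windows of 100 bp on each side, which split the site, it was 41.7 and the groups overlapped. The VIM promoter moved the other way in mean rank, without separation of the groups (-26.9, above). VIM site 2 was assigned to VIM only by the window of 50 kb upstream. It lay nearer to VIM site 1, at -26.6 kb and at the start of TRDMT1, than to the VIM start. Which gene it acts on, if any, was not tested.

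CDH2 encodes N-cadherin, the adhesion protein that replaces E-cadherin in mesenchymal cells (chromosome 18, 25512843 to 25757910, minus strand). Both of its sites that separated the groups were higher in SAP30-KO1. CDH2 site 3, at -26.5 kb, ranked at 0.549, 0 and 0 in parental and at 25.9, 45.8 and 2.97 in SAP30-KO1 cells. CDH2 site 2, in an intron at 62.6 kb, was open in every library, with ranks of 72.8, 75.7 and 54.4 in parental and 85.1, 76.7 and 75.8 in SAP30-KO1 cells. There the highest parental and the lowest SAP30-KO1 library were nearly equal, and the difference of 11.6 was 4.96 without Parental replicate 3. At CDH2 site 3, leaving out SAP30-KO1 replicate 2 reduced the difference from 24.7 to 14.3. At both sites the groups overlapped at a q of 0.0001 or less and with the same number of top-ranked summits in each library, as they did at CDH2 site 3 with windows of 100 bp on each side and at CDH2 site 2 with ranks within the chromosome arm.

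PRRX1 site 4, in an intron at 45.6 kb, was also open in every library. It ranked at 75.8, 80.6 and 79.9 in parental and at 91.7, 95.8 and 86.8 in SAP30-KO1 cells, a difference of 12.7 (78.8 ± 2.58 and 91.4 ± 4.54, SD, n = 3). The groups stayed apart at stricter q values, with equal list lengths, with narrower windows, with ranks within the arm and on log2 scores, but the size of the difference depended on the window and was 29.9 with 100 bp on each side.

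In the other direction, FN1 site 3, in the intron at 2.18 kb from the start, ranked at 37.2, 39.4 and 58.8 in parental and at 0, 8.30 and 12.6 in SAP30-KO1 cells. The difference was -38.1 (45.1 ± 11.8 and 6.98 ± 6.42, SD, n = 3), and the groups stayed apart under the same settings. ZEB2 site 1 lay at 131 kb, toward the far end of the gene, in exon sequence that is untranslated in some annotated transcripts. It ranked at 18.7, 65.2 and 28.7 in parental and at 0, 4.41 and 0 in SAP30-KO1 cells. The difference was -36.1, and leaving out Parental replicate 2 gave -22.2. The groups overlapped at a q of 0.0001 or less, where the difference was -20.0, and with the same number of top-ranked summits.

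The sequences around 4 of these 6 summits, those higher in SAP30-KO1, are printed so that the sites that separated the groups can be read. They are the plus strand of GRCh37, 5′ to 3′, with 100 bases on each side of the summit, at chr10:17248287-17248487, chr18:25784275-25784475, chr18:25695237-25695437 and chr1:170677393-170677593 in this order. Capitals mark the motifs named above, on either strand.
VIM site 2: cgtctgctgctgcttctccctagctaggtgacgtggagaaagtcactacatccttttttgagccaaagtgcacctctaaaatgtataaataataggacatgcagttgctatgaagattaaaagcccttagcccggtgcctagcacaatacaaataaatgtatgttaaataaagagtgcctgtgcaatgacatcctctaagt
CDH2 site 3: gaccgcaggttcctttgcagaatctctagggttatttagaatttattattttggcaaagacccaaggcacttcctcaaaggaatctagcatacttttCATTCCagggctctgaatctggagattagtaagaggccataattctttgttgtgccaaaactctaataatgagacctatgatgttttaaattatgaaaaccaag
CDH2 site 2: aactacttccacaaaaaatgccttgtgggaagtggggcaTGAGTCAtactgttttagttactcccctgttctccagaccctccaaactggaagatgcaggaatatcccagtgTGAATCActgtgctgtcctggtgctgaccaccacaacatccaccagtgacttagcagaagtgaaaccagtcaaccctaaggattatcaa
PRRX1 site 4: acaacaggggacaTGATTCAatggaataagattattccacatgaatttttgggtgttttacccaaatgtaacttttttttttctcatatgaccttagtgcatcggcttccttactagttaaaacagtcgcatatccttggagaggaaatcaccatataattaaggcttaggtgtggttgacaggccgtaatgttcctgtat
CDH2 site 2 holds TGANTCA at 2 places, beginning -61 and 12 bases from the summit, and PRRX1 site 4 holds 1 copy beginning at -87. The copy at -61 reads TGAGTCA, that at 12 TGAATCA and that at -87 TGATTCA, so only the first matches the AP-1 element. CDH2 site 3 holds 1 copy of GGAATG beginning -3 bases from the summit. VIM site 2 holds no motif in these bases, although TGANTCA occurs within 150 bases of its summit.

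FN1 site 3 lies partly in repeated sequence. Of the 8 stretches of 25 bases that tile the bases around its summit, 6 occur more than once in the assembly, whereas the 75 bases centred on the summit, the length of a read, occur once. In the 4 printed sites that separated the groups, none of the stretches of 25 bases occurred more than once. How reads with several equally good positions were kept is not given in the sources used here, and the part of the repeat in the difference at FN1 site 3 was not tested.

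Over all 33 member sites, CACCTG occurred within 150 bases of the summit in 5 (15.2%), against 19.9% of all sites. TGANTCA occurred in 12 (36.4%, against 29.6%) and GGAATG in 6 (18.2%, against 21.1%). Among sites over 1 kb from every transcript start, TGANTCA occurred in 9 of 19 member sites (47.4%) and in 36.8% of all such sites, CACCTG in 10.5% and 19.8%, and GGAATG in 21.1% and 24.1%. Mean GC content was 49.2% at member sites and 51.3% at all sites. Motif matches describe the letters of the sequence and do not show binding.

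Finally, the members were set beside other genes of the program. In a list of 20 further mesenchymal genes, 16 had a promoter peak in at least 1 library (80%) and 9 in all 6 (45%). Among all protein-coding genes these shares were 62.4% and 34.6%. Promoter ranks of the listed genes were higher in every SAP30-KO1 library for 2 genes and lower for 4. The background was 3.75% higher and 2.86% lower over all 20136 protein-coding genes. CDH11, which encodes cadherin-11, had no promoter peak in any parental library and ranks of 40.8, 57.7 and 31.6 in SAP30-KO1 cells. TCF4, an E-box binding factor, ranked at 0, 0 and 20.7 in parental and at 28.6, 59.5 and 42.6 in SAP30-KO1 cells.

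TAGLN, which encodes the actin-binding protein transgelin, ranked at 72.6, 89.9 and 65.1 in parental and at 16.3, 25.8 and 23.7 in SAP30-KO1 cells, a difference of -53.9. LEF1, a factor of the WNT pathway, ranked at 73.2, 58.7 and 54.4 in parental and at 0, 45.1 and 20.3 in SAP30-KO1 cells. ETS1 fell by 6.08 percentile points in mean rank, from 98.8 ± 0.809 to 92.7 ± 2.39 (SD, n = 3), with no overlap. TGFBI, named after its values were seen, was lower by a mean of -4.59. TAGLN and ETS1 lie on the long arm of chromosome 11, where the median difference was -14.7 at 454 sites open in all libraries. Ranked within its own arm, TAGLN differed by -45.3 with the groups still apart, whereas ETS1 differed by -2.72 and TCF4 by 36.7 with the groups overlapping. None of these 6 genes passed adjustment over all genes, for which the lowest adjusted p was 0.944 (exact permutation test, two-sided, n = 3).

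In a list of 20 epithelial genes, 14 had a promoter peak in at least 1 library (70%, against 62.4% of all protein-coding genes). In all 6 libraries 3 had one (15%, against 34.6%). The groups separated in none of the 20, against 6.61% of all protein-coding genes. CDH1 had no promoter peak in any library. EPCAM, an epithelial adhesion molecule, ranked at 43.4, 50.7 and 64.9 in parental and at 3.92, 68.6 and 0 in SAP30-KO1 cells. None of the 5 miR-200 genes had a peak within 1 kb of its annotated start. Those starts belong to short entries, such as MIR200B at chromosome 1, 1102484 to 1102578. A promoter farther upstream was therefore not examined. Of 8 mesenchymal markers, 6 of which are members, 4 had a promoter peak in at least 2 parental libraries and 6 in at least 2 SAP30-KO1 libraries. Of 8 epithelial markers 2 did so in each group. Of all 20136 protein-coding genes, 9770 did so in parental and 10172 in SAP30-KO1 cells. The summed promoter rank of the mesenchymal markers was 183 to 303 in parental and 213 to 330 in SAP30-KO1 libraries, and that of the epithelial markers 43.4 to 185 and 9.16 to 135. Both ranges overlapped between the groups.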

How the data were processed

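ATAC-seq libraries of parental MDA-MB-231 and SAP30-KO1 cells (3 each) were sequenced as single-end reads of 75 bp. Per the paper's methods and the labels, the authors trimmed reads with Trim Galore 0.4.5, aligned them to hg19 with bowtie2 2.3.3.1, discarded duplicates using Picard, and used MACS2 2.1.0 for peaks with q up to 0.05. The authors deposited 1 list per library, called separately, with a position and a score per summit equal to −log10 of the peak's q value (lowest score 1.31 to 1.33 per list). Whether reads were shifted for the transposase offset, and how blacklisted regions were treated, is not given in the sources used here. A shift of a few bases is small beside the windows used.

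Summits were annotated with GENCODE release 44 on GRCh37, the same assembly as hg19, and no summit lay beyond the end of its chromosome. Scores were ranked within each list. Promoters reached 1 kb from any transcript start, and sites merged windows of 250 bp on each side. The exact permutation test on group means ran over the 20 assignments of 6 libraries, and limma 3.58.1 was an alternative. The permutation and limma steps were tested on simulated data. Python 3.11.15 and R 4.3.3 were used. The members and gene lists were chosen with earlier results of these data known. The named sites were, per gene, the site with the highest mean rank, and up to 8 sites per direction whose groups did not overlap. From the other lists, up to 3 genes per direction with groups apart were named, with CDH1 and EPCAM. The alternatives were stricter q values, equal list lengths, other windows and transcript starts, ranks within an arm, log2 scores, leaving out each library, and a replicate block. Sequences are printed for 5 of the named sites, and those of the others are not reported here.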

Additional observations from a re-analysis of the deposited data

How the results depend on the processing

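The exact permutation test cannot reach a p under 0.05 with 3 libraries against 3, so alternatives are described by direction and by whether the groups overlapped. By limma, 0 of the 24 member sites in 2 or more libraries passed an adjusted p of 0.05, so the counts of sites higher and lower were 0 and 0. An unadjusted p under 0.05 was found at 4 of the 24 (lowest adjusted p 0.529) and at 3574 of all 40338 such sites. None of the 7 member promoters passed (0 unadjusted, lowest adjusted p 0.786), and 715 of all 12560 promoters had an unadjusted p under 0.05. Among all sites and all promoters, 0 passed adjustment.

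The 4 sites higher in SAP30-KO1 were 2 at a q of 0.0001 or less, with equal list lengths, with the gene body only and with 100 bp on each side. The 2 sites lower were 1 at a q of 0.0001 or less and with equal list lengths. Sites in all libraries of one group only, 0 as reported, were 1 at a q of 0.01 or less, 2 at 0.0001 or less and 1 with equal list lengths. The 2 regions apart were 1 with equal list lengths. On log2 scores with absent libraries at each list's lowest score, 4 promoters and 11 lower sites were apart, because the lowest scores themselves do not overlap between the groups; with 1 floor for all libraries, chosen after the data were seen, these counts were 0 and 2. The block by replicate number gave 1 promoter, 5 regions, 5 higher and 4 lower sites with the same direction in all 3 number pairs. This is a looser call than groups that do not overlap. Shares over all genes or sites were computed only for the settings as reported and for limma. The counts under every other setting therefore have no background beside them. Same-numbered libraries did not deviate together in rank (correlations of -0.0179, -0.0127 and -0.0032 over 16314 sites open in all libraries). These sites leave out weak and variable peaks, and the labels do not say whether same-numbered libraries were prepared together, so pairing remains unknown.

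The difference in mean promoter rank over the members, -0.574, was 3.46 at a q of 0.0001 or less. The ZEB1 promoter difference of 1.91, which is also that of ZEB1 site 1, was -2.98 at that q and -10.6 with equal list lengths, and the ZEB1 region was -0.0345 at that q. CDH2's region was -0.0107 for the gene body, TWIST2 site 1 was 14.9 with 100 bp on each side, where the split leaves another summit, and the ZEB2 promoter was 0.809 with the canonical transcript, chosen after the data were seen. Apart from the log2 scores, and from limma's threshold, the cause was not tested.

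With 1 library left out, the difference in mean promoter rank ran from -5.30 (without SAP30-KO1 replicate 2) to 4.20 (without SAP30-KO1 replicate 1), promoters apart from 0 to 2, regions apart from 2 to 4, higher sites from 4 to 8, lower sites from 2 to 4 and sites of 1 group only from 0 to 2. Fewer libraries separate more easily by construction, and these counts also have no share over all genes or sites beside them. Directions turned for the promoters of ZEB1 (-5.43 to 14.1, also its site 1), ZEB2 (-8.57 to 0.809) and SNAI2 (-13.97 to 24.8, also its site 1), for FN1 site 4 (-0.239 to 29.1), and for the regions of FN1 (-0.330 to 0.0862) and TWIST2 (-0.0306 to 0.0144). Called peaks carry no read depth, so the depth behind a missing or weak peak is unknown.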
